A study of Mus musculus with 7 samples.

Results

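The mitochondrial DNA-encoded genes are the 37 rows, of 53819 in the deposited gene table, whose symbol starts with mt-. They comprise 13 protein-coding genes, each called an mRNA below, 2 ribosomal RNAs and 22 tRNAs. The rows count genes and not RNA molecules, and genes with overlapping frames can share an RNA. They were followed in quadriceps muscle of male, wild type C57BL/6J mice, in 4 libraries of AAV8-Null animals and 3 of AAV8-IGFBP1 animals. All mice were 8 weeks old when 200 ul of an AAV8 vector (AAV8-Alb-Null or AAV8-Alb-IGFBP1) was injected into the tail vein, and muscle was taken 54 days later. AAV8 is an adeno-associated virus with liver tropism, per the series text, and IGFBP1 is a secreted binding protein of the insulin-like growth factors. Both groups carry a vector, so no uninjected muscle enters the comparison. The labels do not say whether each library is a separate mouse, so the p-values below measure the spread between libraries.

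The mitochondrial genome is a small circle with a heavy and a light strand, transcribed from promoters on each strand into long precursors. The tRNAs that lie between most mRNAs and ribosomal RNAs are cut out of these precursors, which releases the mature transcripts. The mRNAs encode core subunits of the respiratory complexes I, III and IV and of ATP synthase (complex V), while the remaining subunits, the polymerase and the ribosomal proteins are encoded in the nucleus. Muscle fibres of the slow type hold more mitochondria than most fast fibres. In bulk RNA, fewer cells or mitochondria and less RNA per cell cannot be told apart.

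Library totals ran from 38947453 to 51210360 counts, and 2 libraries of 1 group always differed far beyond counting error (a chi-square of 21.9 to 58.9 for each degree of freedom). As a check of the labels, Igfbp1 had 202, 1425 and 142 counts in the AAV8-IGFBP1 libraries and 0, 0, 0 and 8 in the AAV8-Null libraries. Fast fibre markers summed to between 148720 and 181932 CPM (counts relative to the scaled library total) and slow fibre markers to between 334 and 2176 CPM, so fast fibre genes dominated these libraries, a known trait of the mouse quadriceps.

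Several mRNAs of the mitochondrial genome have near-identical copies in the nuclear genome, and the deposited table lists these copies as separate genes. Transcripts of GENCODE M21 (build GRCm38) held 11 nuclear pseudogenes with at least 95% identity to a mitochondrial transcript over at least 100 bases. Of these, 7 reached at least 99% identity and 5 of them had no mismatch over the aligned part. All 7 lay on chromosome 1 of GRCm38 within 4663 bases, between positions 24611535 and 24616197, each matching 1 mitochondrial mRNA. The build of the deposited counts is GRCm39, so these positions describe the copies and not the rows of the table. The sequences below, from GENCODE M21, show how little separates a member from its copy. The final bases of mt-Co2, an oxidase subunit of complex IV, are shown with the last 3 bases, absent from the copy Gm28661, in capitals.
mt-Co2: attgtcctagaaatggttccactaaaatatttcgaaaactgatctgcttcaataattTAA
Gm28661: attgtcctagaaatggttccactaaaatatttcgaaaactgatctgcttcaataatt
The first 60 bases of mt-Nd3, a complex I subunit, and of Gm28438 differ by T3C, counted from the 5′ end of the transcript, with the differing base in capitals.
mt-Nd3: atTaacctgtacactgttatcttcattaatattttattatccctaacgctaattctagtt
Gm28438: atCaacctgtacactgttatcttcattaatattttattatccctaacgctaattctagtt
A stretch of mt-Co1, the catalytic subunit of complex IV, and Gm29216 differ by A1066T.
mt-Co1: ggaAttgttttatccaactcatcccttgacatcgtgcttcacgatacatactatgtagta
Gm29216: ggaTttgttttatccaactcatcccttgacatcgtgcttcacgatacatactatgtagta
A more diverged copy of mt-Co1, Gm13340 (97.6% identity), carries A462G, A468G, T501C and C519T in the stretch shown, in capitals.
mt-Co1: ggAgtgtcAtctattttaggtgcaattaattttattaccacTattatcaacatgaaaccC
Gm13340: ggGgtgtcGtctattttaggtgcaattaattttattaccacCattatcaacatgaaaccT

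The counts were split between these pairs in every library. Gm28661 took 58.4% to 62.7% of the counts of the mt-Co2 pair, Gm10222 took 48.0% to 53.8% of those of the mt-Nd4l pair, and Gm28438 took 40.3% to 45.0% of those of mt-Nd3. Gm28437 held 36.0% to 40.1% of the mt-Co3 pair and Gm10925 held 26.5% to 30.2% of the mt-Atp6 pair. Gm28439 matches part of mt-Nd4 and held 4.39% to 7.31% of that pair. The shares overlapped between the groups for all 7 pairs. For the mt-Co1 pair, Gm29216 held 2.91% in AAV8-IGFBP1 replicate 1 and 6.03% to 6.95% in the other 6 libraries. The copies' own log2 fold changes lay between -0.62 and -0.11, all 7 below 0, with a lowest edgeR adjusted p of 0.373. The diverged copies took under 0.2% of their pairs, with 0.170% to 0.193% for Gm13340. Reads from identical sequence cannot be assigned to the mitochondrial or the nuclear gene, so levels of mt-Co2, mt-Nd4l, mt-Nd3, mt-Co3 and mt-Atp6 in the deposited table are uncertain, and the edgeR fit was repeated with each copy added to its mitochondrial gene. For the other 6 mRNAs (mt-Nd1, mt-Nd2, mt-Atp8, mt-Nd5, mt-Nd6 and mt-Cytb) no such copy was found among annotated transcripts. The genome itself was not searched, so copies without an annotated transcript could have been missed.

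**Figure D1:**
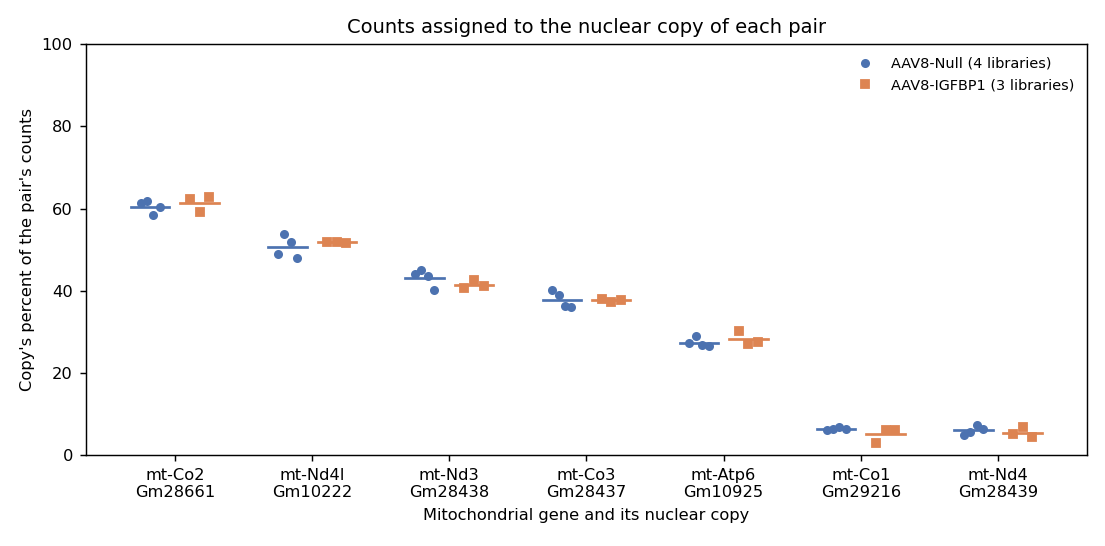
Percent of the counts of each pair (mitochondrial gene plus nuclear copy) that the deposited table assigns to the copy, per library; points are libraries and bars are group means. The share runs from near 61% for Gm28661 down to a few percent for Gm29216 and Gm28439, and the groups overlap in every pair.

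Mitochondrial transcripts made up 14.7%, 14.8% and 15.5% of all counts in AAV8-IGFBP1 replicates 1 to 3, and 17.7%, 15.1%, 18.1% and 18.6% in AAV8-Null replicates 1 to 4. The means were 14.98% ± 0.425 (SD, n = 3) and 17.4% ± 1.53 (SD, n = 4), and the groups overlap because AAV8-Null replicate 2 sits within the AAV8-IGFBP1 values. The 13 mRNAs carried 14.6% ± 0.415 (SD, n = 3) and 16.9% ± 1.53 (SD, n = 4) of counts, and the 2 ribosomal RNAs 0.374% ± 0.0251 and 0.516% ± 0.124 respectively. The 22 tRNAs together held at most 0.000359% of counts, and 8 of them had no count in any library. Adding the near-identical copies gave 17.2% ± 0.570 (SD, n = 3) for AAV8-IGFBP1 and 20.04% ± 1.66 (SD, n = 4) for AAV8-Null. The copies by themselves took 2.12% to 2.42% in the AAV8-IGFBP1 libraries and 2.46% to 2.76% in the AAV8-Null libraries, without overlap. The cytoplasmic ribosomal RNA Rn18s moved the other way on average, at 1.63% ± 0.606 (SD, n = 3) for AAV8-IGFBP1 and 0.840% ± 0.329 (SD, n = 4) for AAV8-Null, with overlapping groups. Per the labels these are mRNA libraries, so counts on ribosomal RNAs and tRNAs need not follow their amounts in the tissue.

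**Figure D2:**
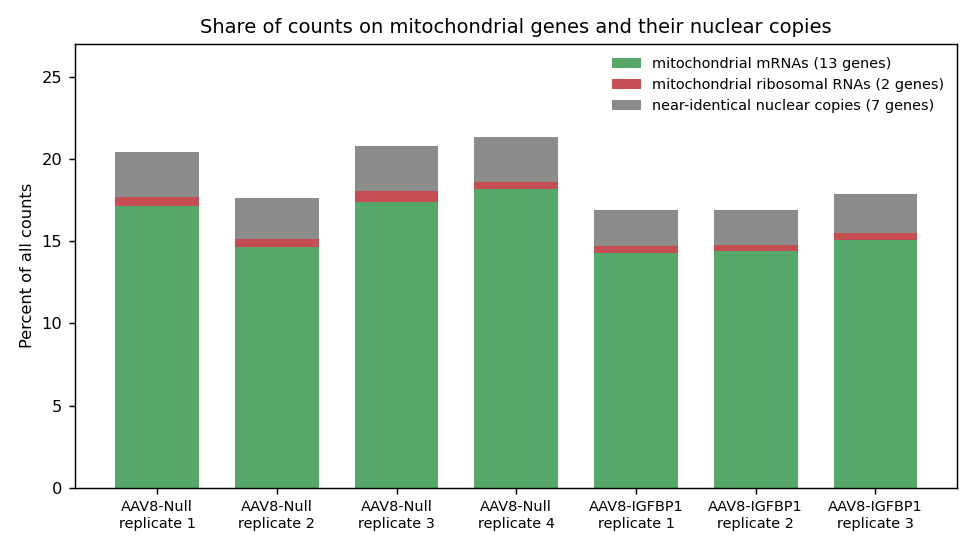
Percent of all counts in each library that fall on mitochondrial mRNAs, mitochondrial ribosomal RNAs and the near-identical nuclear copies, stacked; bars are single libraries. AAV8-Null replicate 2 lies close to the AAV8-IGFBP1 libraries, and the other 3 AAV8-Null libraries are higher.

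Of the 37 members, 18 passed the filter on low counts: all 13 mRNAs, both ribosomal RNAs and 3 tRNAs (mt-Tm, mt-Th and mt-Tp). None of these 18 passed an adjusted p under 0.05 in edgeR's quasi-likelihood test, against 0.583% of the 14935 genes tested (87 genes) and 0.194% called lower. The unadjusted p was under 0.05 for 5 of the 18 members (mt-Nd1, mt-Co1, mt-Co2, mt-Atp6 and mt-Rnr2), against 12.9% of all genes (6.91% lower). DESeq2 called 1 of the 18, mt-Rnr2 (log2 fold change -0.49, adjusted p 0.0359), where it called 2.99% of all genes (1.57% lower). It gave no adjusted p for mt-Th, and genes without an adjusted p count as not called in these shares. At an unadjusted p under 0.05 it had 5 members, against 12.3% of all genes. limma-voom called none, against 0.415% of all genes, with a lowest adjusted p of 0.252. It had 5 members at an unadjusted p under 0.05, against 12.7% of all genes. All 18 log2 fold changes (AAV8-IGFBP1 against AAV8-Null) lay below 0, where 50.1% of all genes did. The members come from shared precursors, so they are not independent of each other. The CPM of the groups did not overlap for 2 members, mt-Nd1 and mt-Rnr2, both lower in AAV8-IGFBP1, and 12.3% of all tested genes did not overlap (6.01% lower).

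The 13 mRNAs had a median log2 fold change of -0.20, from -0.29 to -0.06, beside a median of -0.00 over all genes. The 975 tested genes at or above the lowest mitochondrial mRNA in mean log2 CPM had a median of -0.00, with 52% below 0 and 11 called. The standard errors of the mRNAs ran from 0.0776 to 0.152 and the adjusted p-values from 0.266 to 0.822 (edgeR). With each copy added to its gene the median stayed at -0.20 (-0.29 to -0.06), 0 of 18 members were called in edgeR, and the lowest adjusted p was 0.256, with 5 at an unadjusted p under 0.05. Leaving out each library in turn gave medians of -0.26 to -0.15 and no called member in edgeR. The number of members at an unadjusted p under 0.05 then ran from 1 of 19 tested, without AAV8-IGFBP1 replicate 1 (10.01% of all genes), to 11 of 18, without AAV8-Null replicate 2 (12.9% of all genes, lowest adjusted p 0.109).

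**Figure D3:**
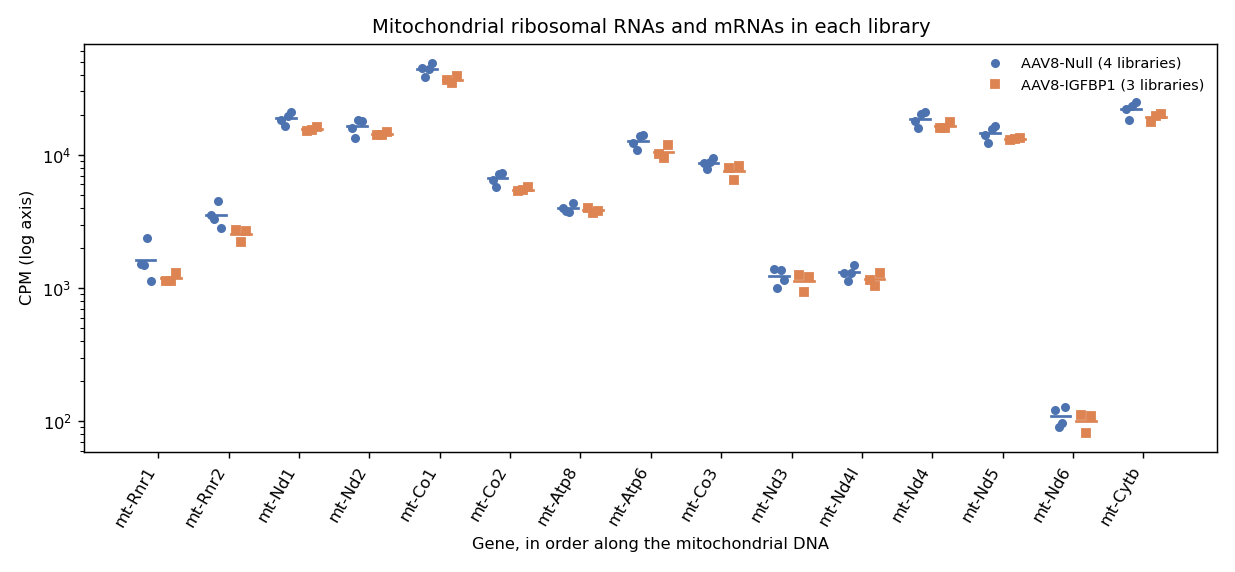
CPM of the 2 ribosomal RNAs and 13 mRNAs in each library, in gene order, on a log axis; points are libraries and bars are group means. The level ranges from mt-Nd6 with the lowest to mt-Co1 with the highest CPM, and group means of AAV8-IGFBP1 lie below those of AAV8-Null throughout.

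Complex I, which passes electrons from NADH to ubiquinone, takes 7 of the mRNAs, with a median log2 fold change of -0.17. Its member mt-Nd1 had 18215, 16340, 19497 and 21006 CPM in AAV8-Null and 15090, 15473 and 16193 CPM in AAV8-IGFBP1. All 3 AAV8-IGFBP1 values lay below the lowest AAV8-Null value. The log2 fold change was -0.27 ± 0.10 (SE), with a 95% interval of -0.49 to -0.05 and an adjusted p of 0.303. The mRNA mt-Nd2 had 15992, 13495, 18322 and 17865 CPM in AAV8-Null and 14048, 13991 and 14945 CPM in AAV8-IGFBP1, a log2 fold change of -0.20 ± 0.11 (SE; adjusted p 0.505 in edgeR). The groups overlap through AAV8-Null replicate 2.

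The subunits mt-Nd4 and mt-Nd4l are read from adjacent, overlapping frames. For mt-Nd4 the CPM were 17817, 15839, 20168 and 21003 in AAV8-Null and 15804, 15829 and 17582 in AAV8-IGFBP1, a log2 fold change of -0.19 ± 0.11 (SE; adjusted p 0.518 in edgeR). Here too the AAV8-Null replicate 2 value was close to the AAV8-IGFBP1 values. For mt-Nd4l they were 1307, 1124, 1308 and 1503 against 1156, 1038 and 1293 CPM, a log2 fold change of -0.17 ± 0.11 (SE; adjusted p 0.558 in edgeR). With the copies added, the log2 fold changes were -0.20 for mt-Nd4 and -0.14 for mt-Nd4l.

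The mRNA mt-Nd5 had 14108, 12181, 15697 and 16539 CPM in AAV8-Null and 12932, 13121 and 13366 in AAV8-IGFBP1, a log2 fold change of -0.16 ± 0.11 (SE; adjusted p 0.598 in edgeR). For mt-Nd3 the CPM were 1387, 1003, 1368 and 1159 against 1255, 928 and 1202, a log2 fold change of -0.12 ± 0.14 (SE; adjusted p 0.775 in edgeR). The groups overlapped for both genes. Without AAV8-IGFBP1 replicate 2 the log2 fold change was -0.00017 for mt-Nd3 and -0.10 for mt-Nd4l, and without AAV8-Null replicate 4 it was -0.09 for mt-Nd5. In all 7 libraries, with its copy added, mt-Nd3 had a log2 fold change of -0.17. The light strand mRNA mt-Nd6 is the only mRNA of that strand, and it had 121, 91.5, 96.8 and 128 CPM in AAV8-Null and 111, 81.7 and 109 CPM in AAV8-IGFBP1. Its log2 fold change was -0.12 with a 95% interval of -0.47 to 0.24 (edgeR adjusted p 0.805). Its counts were 0.617% to 0.861% of those of mt-Nd5, which lies on the opposite strand next to it. Whether the counting used strand is not given in the sources used here; reads from the 2 strands at overlapping positions could have been mixed.

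Complex IV reduces oxygen, and its 3 mitochondrial subunits had a median log2 fold change of -0.27, the lowest median among the complexes. The most abundant member, mt-Co1, had 45283, 38334, 44070 and 49371 CPM in AAV8-Null and 36497, 34406 and 39437 CPM in AAV8-IGFBP1. The groups overlap only through AAV8-Null replicate 2. Its log2 fold change was -0.27 ± 0.10 (SE), with a 95% interval of -0.50 to -0.03 and an edgeR adjusted p of 0.332. The mRNA mt-Co2 had 6520, 5720, 7230 and 7305 against 5316, 5409 and 5732 CPM, the lowest log2 fold change of the mRNAs at -0.29 ± 0.10 (SE; 95% interval -0.50 to -0.07; adjusted p 0.266 in edgeR). The same AAV8-Null replicate lies inside the AAV8-IGFBP1 values. For mt-Co3 the CPM were 8655, 7904, 8814 and 9408 against 7963, 6450 and 8303, a log2 fold change of -0.20 ± 0.10 (SE; adjusted p 0.472 in edgeR). Without AAV8-IGFBP1 replicate 2 it was -0.10 for mt-Co3. With the copies added, the log2 fold changes were -0.29 for mt-Co1, -0.25 for mt-Co2 and -0.20 for mt-Co3.

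Complex III passes electrons to cytochrome c, and its single mitochondrial subunit mt-Cytb had 22114, 18422, 23277 and 24806 CPM in AAV8-Null and 17641, 19425 and 20381 CPM in AAV8-IGFBP1. The log2 fold change was -0.21 ± 0.11 (SE; adjusted p 0.478 in edgeR), with overlapping groups. ATP synthase, complex V, contributes mt-Atp6 and mt-Atp8, which are read from 1 stretch of DNA in overlapping frames; the last 60 bases of mt-Atp8 and the first 60 of mt-Atp6 are shown, with the 43 shared bases in capitals, because reads from them belong to both genes.
mt-Atp8: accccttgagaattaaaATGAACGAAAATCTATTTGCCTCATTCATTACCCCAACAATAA
mt-Atp6: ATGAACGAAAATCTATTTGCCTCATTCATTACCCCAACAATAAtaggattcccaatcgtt
The mRNA mt-Atp6 had 12198, 10836, 13955 and 14017 CPM in AAV8-Null and 10244, 9526 and 11925 CPM in AAV8-IGFBP1, a log2 fold change of -0.27 ± 0.12 (SE; 95% interval -0.53 to -0.01; adjusted p 0.375 in edgeR). For mt-Atp8 the CPM were 4020, 3821, 3734 and 4375 against 4018, 3679 and 3813, a log2 fold change of -0.06 ± 0.08 (SE; 95% interval -0.23 to 0.12; adjusted p 0.822 in edgeR). The groups overlapped for both. With its copy added, mt-Atp6 had a log2 fold change of -0.25.

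The mitochondrial ribosomal RNAs, which form the ribosome that translates these mRNAs, had lower log2 fold changes than any mRNA. These fold changes compare what mRNA libraries held of them, which need not follow their amounts in the muscle. For mt-Rnr2, the large subunit RNA, the CPM were 3548, 3326, 4545 and 2818 in AAV8-Null and 2726, 2208 and 2676 in AAV8-IGFBP1, so the groups did not overlap. Relative to unscaled library totals the groups overlapped, with 115769 of 42557907 counts in AAV8-Null replicate 4 and 125512 of 45717801 in AAV8-IGFBP1 replicate 1. The log2 fold change of mt-Rnr2 was -0.49 ± 0.16 (SE; 95% interval -0.85 to -0.13; adjusted p 0.254 in edgeR). For mt-Rnr1, the small subunit RNA, they were 1510, 1487, 2390 and 1128 against 1137, 1129 and 1303 CPM, a log2 fold change of -0.45 ± 0.24 (SE; 95% interval -1.02 to 0.12; adjusted p 0.497 in edgeR). AAV8-Null replicate 3 was the highest library for both genes and AAV8-Null replicate 4 was the lowest AAV8-Null library. Without AAV8-Null replicate 3 the log2 fold change was -0.21 for mt-Rnr1 and -0.35 for mt-Rnr2. Ribosomal RNA counts were 2.72%, 2.39% and 2.58% of mRNA counts in AAV8-IGFBP1 and 3.02%, 3.32%, 3.91% and 2.09% in AAV8-Null.

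The tRNAs are short, and 8 of 22 had no count in any library (mt-Tf, mt-Ta, mt-Tc, mt-Td, mt-Tk, mt-Ts2, mt-Tl2 and mt-Tt). Since the libraries were made as mRNA libraries, low or absent counts do not give the amount of a tRNA in the tissue. A count of 0 allows up to 3 counts, or 0.0580 to 0.0785 CPM per library. The deepest was mt-Tm, the methionine tRNA, with 154 counts over the 7 libraries; its 69 bases are shown as the whole length on which a tRNA's reads must fall.
mt-Tm: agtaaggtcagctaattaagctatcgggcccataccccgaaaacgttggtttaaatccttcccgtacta
Its CPM were 0.656, 0.406, 1.205 and 0.195 in AAV8-Null and 0.369, 0.290 and 0.376 in AAV8-IGFBP1, a log2 fold change of -0.78 ± 0.55 (SE; adjusted p 0.604 in edgeR). For mt-Th the log2 fold change was -0.46 ± 0.57 (SE; adjusted p 0.796 in edgeR), and for mt-Tp it was -1.15 ± 0.77 (SE; adjusted p 0.589 in edgeR). The largest of these counts was 46, and the 95% intervals were wide, at -2.01 to 0.45 for mt-Tm. Outside the filter, mt-Tv was the only tRNA whose groups did not overlap, at 0.119 to 0.262 CPM in AAV8-Null and 0 to 0.111 CPM in AAV8-IGFBP1, with at most 13 counts, and it was singled out after its values were seen.

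**Figure D4:**
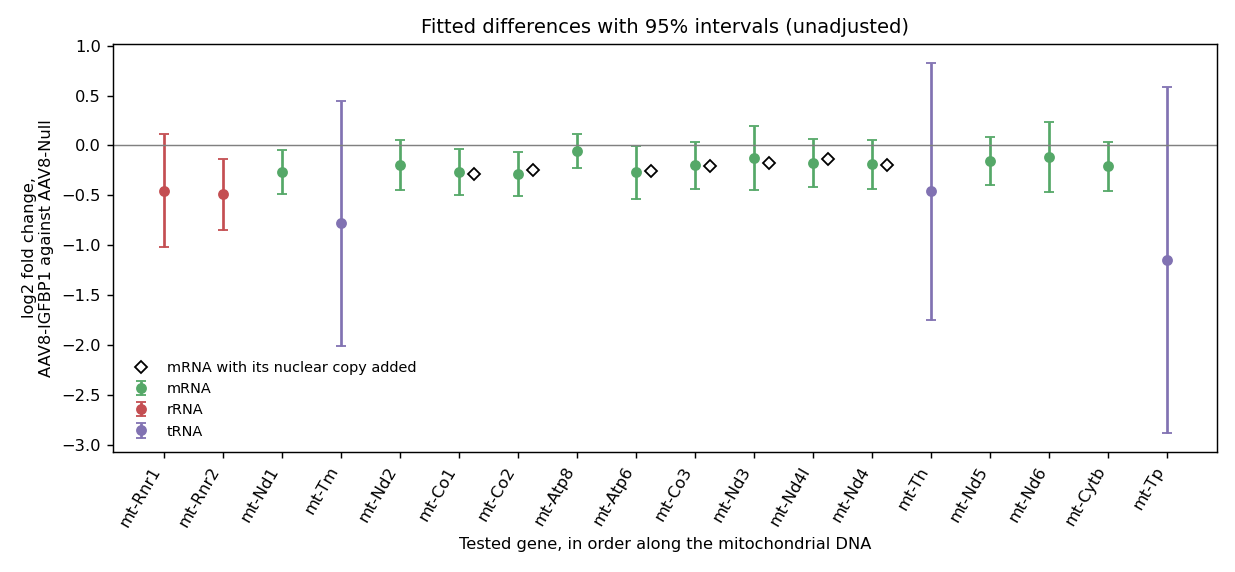
Fitted log2 fold change (AAV8-IGFBP1 against AAV8-Null) of each tested member with its unadjusted 95% interval, in order along the mitochondrial DNA; diamonds give the mRNA with its nuclear copy added. The mRNAs lie between -0.29 and -0.06, the ribosomal RNAs near -0.5, and the tRNA intervals are wide.

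Per kilobase of transcript length (GENCODE M21), mt-Co1 was the most abundant mRNA in AAV8-Null at 28650 ± 2950 CPM per kb (SD, n = 4), and mt-Nd6 the least at 210 ± 34.3. The 4 neighbours in the order, mt-Nd1 (19608 CPM per kb), mt-Atp8 (19547), mt-Cytb (19366) and mt-Atp6 (18724), had means that lay closer to their neighbour's than the SD between libraries, with mt-Nd1 above mt-Atp8 in 2 of 7 libraries, mt-Atp8 above mt-Cytb in 5 and mt-Cytb above mt-Atp6 in 6. The ribosomal RNAs lay low, at 2250 ± 458 for mt-Rnr2 and 1706 ± 562 for mt-Rnr1 CPM per kb. Because these are mRNA libraries, this place in the order need not hold for the tissue. These means differ by less than the SD of mt-Rnr1, but mt-Rnr2 was the higher in all 7 libraries. With the copies added, mt-Co2 moved from the ninth to the third place, at 24722 CPM per kb, and mt-Atp6 to the second, at 25765 CPM per kb. Every mRNA's share of the mRNA pool overlapped between the groups. Within the pool mt-Co1 made up 25.8% of counts, mt-Cytb 13.1%, mt-Nd4 11.1% and mt-Nd1 10.9% (means of 7 libraries). With copies in the pool these were 23.7%, 11.3%, 10.2% and 9.44%, and mt-Co2 went from 3.87% to 8.56%.

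The nuclear genes that transcribe, process and translate the mitochondrial RNA, and that supply the rest of the respiratory chain, were described beside them. Of 176 tested genes in 10 lists, 1 was called, beside 0.583% of all genes. That gene was Slc25a36, a mitochondrial pyrimidine nucleotide carrier, at 51.8, 39.1, 41.8 and 41.7 CPM in AAV8-Null and 27.1, 31.3 and 28.5 CPM in AAV8-IGFBP1. Its log2 fold change was -0.59 ± 0.10 (SE; adjusted p 0.0423 in edgeR), but leaving out any library except AAV8-Null replicate 2 brought it past 0.05, to at most 0.165 without AAV8-IGFBP1 replicate 1.

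None of the 10 genes of mitochondrial transcription was called, with 6 below 0 and a median of -0.04. The RNA polymerase Polrmt was at 0.16 ± 0.06 (log2 fold change and SE, edgeR adjusted p 0.297), with no overlap between groups. Mterf1b, of the mitochondrial termination factor family, was at -0.93 ± 0.34 (edgeR adjusted p 0.305), also with no overlap. Its level was low, with means of 0.348 CPM in AAV8-Null and 0.181 CPM in AAV8-IGFBP1. Groups did not overlap for 2 of the 10 genes, beside 12.3% of all tested genes. The transcription factor Tfam was at 0.09 ± 0.08 (edgeR adjusted p 0.691). Tfam was named after its values were seen. Of 17 genes of mtDNA maintenance 4 lay below 0, and the median was 0.06. RNA processing (36 genes) had a median of -0.03 and translation and assembly (18 genes) -0.09, with 0 called in each.

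Among the 80 nuclear respiratory chain subunits 67 lay below 0, where 50.1% of all genes did, with a median of -0.08. None was called by edgeR, and 5 had an unadjusted p under 0.05, all lower, beside 6.91% of all genes. The median was -0.08 for complex I (37 genes), -0.13 for complex II (4), -0.09 for complex III (9), -0.05 for complex IV (15) and -0.12 for complex V (15). Ndufb10, a complex I subunit, was at 225 ± 15.05 CPM (SD, n = 4) and 193 ± 15.1 CPM (SD, n = 3), a log2 fold change of -0.22 ± 0.08 (SE; adjusted p 0.277 in edgeR). Cox7a1, a muscle isoform of complex IV, was at -0.24 ± 0.09 (log2 fold change and SE, edgeR adjusted p 0.305). The regulators of mitochondrial biogenesis (15 genes, 8 below 0 and 7 above, 0 called) had a median of -0.00. Lowest in unadjusted p were the deacetylase Sirt1 at 0.34 ± 0.10 (edgeR adjusted p 0.188) and Ppara at -0.55 ± 0.24 (edgeR adjusted p 0.386). The coactivator Ppargc1a came next at -0.43 ± 0.19 (edgeR adjusted p 0.400).

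The slow fibre marker list (12 of 12 genes measured, 11 below 0, none called, median log2 fold change -1.41) was, like the mRNAs, lower on average in AAV8-IGFBP1. It summed to 724 to 2176 CPM in AAV8-Null and 334 to 990 CPM in AAV8-IGFBP1, with overlapping groups. Its level, the mean centred log2 CPM, was 1.103, -0.34, 0.41 and 0.90 in AAV8-Null and -1.37, -0.63 and -0.07 in AAV8-IGFBP1, beside 0.09, -0.13, 0.14 and 0.23 and -0.10, -0.21 and -0.02 for the mitochondrial mRNAs. AAV8-Null replicate 2 was the lowest AAV8-Null library for both, but the lowest AAV8-IGFBP1 library was replicate 1 for the slow fibre markers and replicate 2 for the mRNAs. With this level as a covariate the median of the mRNAs was -0.02, with mt-Nd3, mt-Nd4l, mt-Nd5, mt-Nd6 and mt-Cytb above 0. In that fit mt-Rnr2 was at -0.55 and mt-Rnr1 at -0.49. The slow fibre level itself differed on average between the groups, at 0.52 ± 0.64 (SD) in AAV8-Null and -0.69 ± 0.65 (SD) in AAV8-IGFBP1. Slow fibre level and vector therefore cannot be told apart in this fit. Fast fibre markers (13 of 13 measured, 4 below 0, none called) had a median log2 fold change of 0.12. Their level was -0.0016 ± 0.060 (SD) in AAV8-Null and 0.0022 ± 0.073 (SD) in AAV8-IGFBP1, with overlapping groups. Adipocyte markers (8 of 8 measured, 0 below 0, none called, median log2 fold change 1.08) reached 2.11 in AAV8-IGFBP1 replicate 2. They summed to 243 to 492 CPM in AAV8-Null and 312 to 1587 CPM in AAV8-IGFBP1. Tenocyte markers (8 of 8 measured and below 0, none called, median log2 fold change -0.41) ranged from 176 to 406 CPM and from 81.0 to 326 CPM. Schwann cell markers (6 of 6 measured, none called) were lower in AAV8-IGFBP1 without overlap, at 33.4 to 38.2 CPM against 39.3 to 58.4 CPM. Beside this, 12.3% of all single genes tested did not overlap. The levels of every other list examined overlapped between the groups, macrophage, erythroid and cardiac markers among them. Fibroblast markers (8 of 8 measured and below 0, none called, median log2 fold change -0.61) summed to 593 to 994 CPM in AAV8-Null and 362 to 654 CPM in AAV8-IGFBP1. Endothelial markers (8 of 8 measured and below 0, none called, median -0.12) summed to 224 to 281 CPM and 224 to 238 CPM. The part of adipocytes, tenocytes, Schwann cells, fibroblasts and endothelial cells in the mitochondrial values was not tested.

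**Figure D5:**
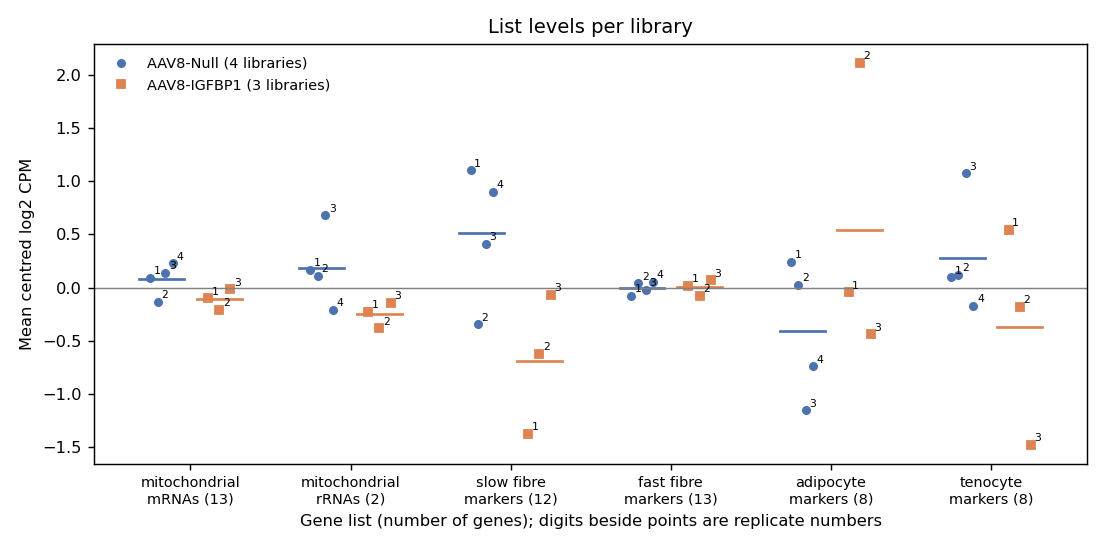
Mean centred log2 CPM of each gene list per library, with replicate numbers beside the points; bars are group means. Mitochondrial mRNAs and slow fibre markers both lie lowest among the AAV8-Null libraries in replicate 2, and the adipocyte list is highest in AAV8-IGFBP1 replicate 2.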

How the data were processed

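Per the labels, total RNA was isolated from quadriceps and made into mRNA libraries. The deposited values are estimated counts, 1 row per gene symbol and 1 column per library. The tools named, per the submitters' processing notes, were Salmon 1.10.1, STAR 2.7.9a, Trim Galore 0.6.7, cutadapt 3.4 and R 4.2.2; neither their roles nor their order is given, and the build was GRCm39. Estimated counts were rounded and tested with edgeR 4.0.16 (filterByExpr with a minimum count of 10, TMM, robust quasi-likelihood fit on group alone, Benjamini-Hochberg over 14935 genes, threshold 0.05). CPM are TMM-scaled. Standard errors are approximate. Nuclear copies were found with BLAST 2.17.0 in GENCODE M21. DESeq2 1.42.0, limma 3.58.1 (voom), other scalings, filters, the copies, a slow fibre covariate, a replicate block and leaving out each library were alternatives. The steps were tested on simulated data. All mitochondrial mRNAs and ribosomal RNAs are given; tRNAs past the filter, called genes and up to 3 others per nuclear list were eligible for naming. Members and lists were chosen with earlier results of these data known.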

Additional observations from a re-analysis of the deposited data

Results flagged for a closer look

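The percent of counts on the near-identical nuclear copies was 2.46% in AAV8-Null replicate 2, apart from the 2.71% to 2.76% of the other 3 AAV8-Null libraries. It was the only value that stood apart among 52 groups examined, where chance gives about 1 in 20. The same library was the lowest of its group for 12 of the 13 mitochondrial mRNAs.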

How the results depend on the processing

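No member was called lower or higher under any alternative except DESeq2, which called 1 lower, mt-Rnr2. The median log2 fold change of the mRNAs was 0.032 when scaled to the mitochondrial mRNA pool, with or without copies joined. That scaling divides by the summed counts of these same mRNAs, so their log2 fold changes centre near 0 by its construction. For the same reason it moves the median of all genes by 0.21. The median of the mRNAs was -0.017 with the slow fibre covariate, -0.15 with the replicate block and -0.26 to -0.15 leaving out 1 library at a time. Of 409 member values under 23 alternatives, 383 kept their direction and side of the threshold. With the pool scaling, log2 fold changes were 0.032 for mt-Nd2, 0.16 for mt-Atp8, 0.018 for mt-Co3, 0.096 for mt-Nd3, 0.049 for mt-Nd4l, 0.037 for mt-Nd4, 0.074 for mt-Nd5, 0.11 for mt-Nd6 and 0.017 for mt-Cytb. With copies joined as well they were 0.037, 0.17, 0.017, 0.051, 0.084, 0.032, 0.080, 0.11 and 0.022. With the slow fibre covariate they were 0.012 for mt-Nd3, 0.036 for mt-Nd4l, 0.012 for mt-Nd5, 0.098 for mt-Nd6, 0.035 for mt-Cytb and 0.075 for mt-Tp. Leaving out 1 library at a time, mt-Nd6 ran from -0.196 to 0.013, the latter without AAV8-IGFBP1 replicate 2. The cause of the shifts outside the pool scaling was not tested.

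The count of all genes called was 87. It was 151 with the pool scaling, 166 with copies joined as well, 447 with DESeq2, 157 without a low-count filter, 27 with the slow fibre covariate, 212 at a threshold of 0.1, and 14 to 79 leaving out 1 library at a time. With the replicate block it was 4; same-numbered libraries did not deviate together (correlations of -0.10, 0.07 and -0.06), not every library correlated best with its own number, and the block lost the call of Slc25a36. The nuclear lists' count of 1 became 0 with library totals, either pool scaling, limma-voom, the block and the covariate, and ran from 0 to 2 leaving out 1 library at a time. The differences in percent of counts ran from -3.13 to -1.99 for all mitochondrial genes, from -2.98 to -1.80 for mRNAs and from -0.187 to -0.0870 for ribosomal RNAs. The joined copies and the older edgeR method (83 genes called) were chosen after seeing the data. The low-count filter left out 19 tRNAs; without it 29 members could be tested, 6 had an unadjusted p under 0.05 and 0 were called. The stricter filter left no tRNA to test, and mt-Tp gave no value without AAV8-Null replicate 1 or without AAV8-Null replicate 3.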
